A study of Mus musculus with 12 samples.

Results

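Genes of creatine cycling and of calcium cycling were followed across 12 mouse expression arrays. They were taken by symbol: Ckmt1, Ckmt2, Ckb, Gatm, Gamt, Slc6a8, Alpl, Atp2a2 and Ryr2. All 9 are on the array, among 18194 genes in all, and 17 probe sets name one of them alone. Each gene is read from its brightest probe set (by mean over the 12 arrays), and dimmer ones serve as a check where they exist. Ckmt2, Ckb, Gatm, Gamt and Alpl have a single probe set, so their calls have no such check. The arrays form 6 groups of 2, with replicates a and b. KO_HFD and KO_RD are Smad3-/- mice, a targeted disruption of the gene, fed a high fat diet (55% fat) or a regular diet. Their background mixes C57BL/6 with NIH Black Swiss (the label adds females, Taconic). WT_HFD and WT_RD are wild-type C57BL/6 mice on the same diets, so genotype and strain background cannot be told apart. ATGF and IgG are diet-induced obese C57J/B6 mice that received a TGF-beta antibody (1D11) or control IgG (13C4) by intraperitoneal injection, with 3 injections weekly over 8 weeks. The labels give neither age nor tissue. Adipoq, the fat-cell hormone adiponectin, averaged 13.92 log2 units in KO_HFD, 13.76 in WT_HFD, 13.07 in KO_RD, 13.95 in WT_RD, 14.15 in ATGF and 13.80 in IgG.

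In fat cells, energy can be turned into heat without the uncoupling protein Ucp1 by cycles that consume ATP and do no net work. In the creatine cycle, creatine kinase moves a phosphate from ATP to creatine, and a phosphatase (tissue-nonspecific alkaline phosphatase, the product of Alpl, has been proposed in mice) releases it again. In the calcium cycle, a SERCA pump drives calcium into the endoplasmic or sarcoplasmic reticulum and a ryanodine receptor lets it leak back. The same proteins buffer ATP and drive contraction in muscle, and several are made in brain, kidney, liver and bone as well.

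The values are log2 RMA values, a probe-set intensity normalized between arrays. Array medians were 6.32 to 6.39 in the diet and genotype experiment (8 arrays, SDs of 1.64 to 1.74) and 6.03 to 6.04 in the antibody experiment (4 arrays, SDs of 2.15 to 2.17). Differences are therefore taken only within each of these experiments, and levels listed over both are a description. Replicates correlated at r = 0.992 to 0.996 over genes. Nothing in the labels tells whether replicates are different animals. The p-values reflect array-to-array spread alone, which may be technical. None of the 3 Smad3 probe sets passed for genotype on either diet. The brightest stood at 9.14 and 9.03 in KO_HFD against 8.88 and 8.95 in WT_HFD, and at 9.10 and 9.17 in KO_RD against 8.86 and 8.94 in WT_RD. Their position relative to the disrupted part is unknown here, and so they are no check of the genotype labels. Markers of other tissues differed between groups. The mean level of 18 fast skeletal muscle genes was 9.85 to 9.99 in KO_HFD and 10.54 to 10.58 in ATGF, and 5.47 to 6.48 in the other groups. That of 10 epididymis and testis genes was 11.14 to 11.21 in KO_RD and 8.15 to 8.23 in WT_HFD, and 4.77 to 6.93 elsewhere. That of 10 smooth muscle and pericyte genes was 10.82 to 10.90 in WT_RD and 7.79 to 9.18 elsewhere. Epididymis and testis are organs of males, while the knockout label names females, so the sex of the arrayed mice is unclear. In bulk tissue, fewer cells of a type and less RNA per cell cannot be told apart. The 3' minus 5' difference of Gapdh, which grows as RNA degrades, was 0.28 to 0.50 in KO_HFD, WT_HFD and KO_RD and 0.12 to 0.14 in WT_RD, and 0.09 to 0.14 in ATGF against 0.02 to 0.10 in IgG. That of actin was 0.90 to 1.12 in the same 3 groups and 0.77 to 0.80 in WT_RD, and 0.75 to 0.87 in ATGF against 0.61 to 0.67 in IgG, with no overlap. What part these differences have in the results below was not tested.

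**Figure D1:**
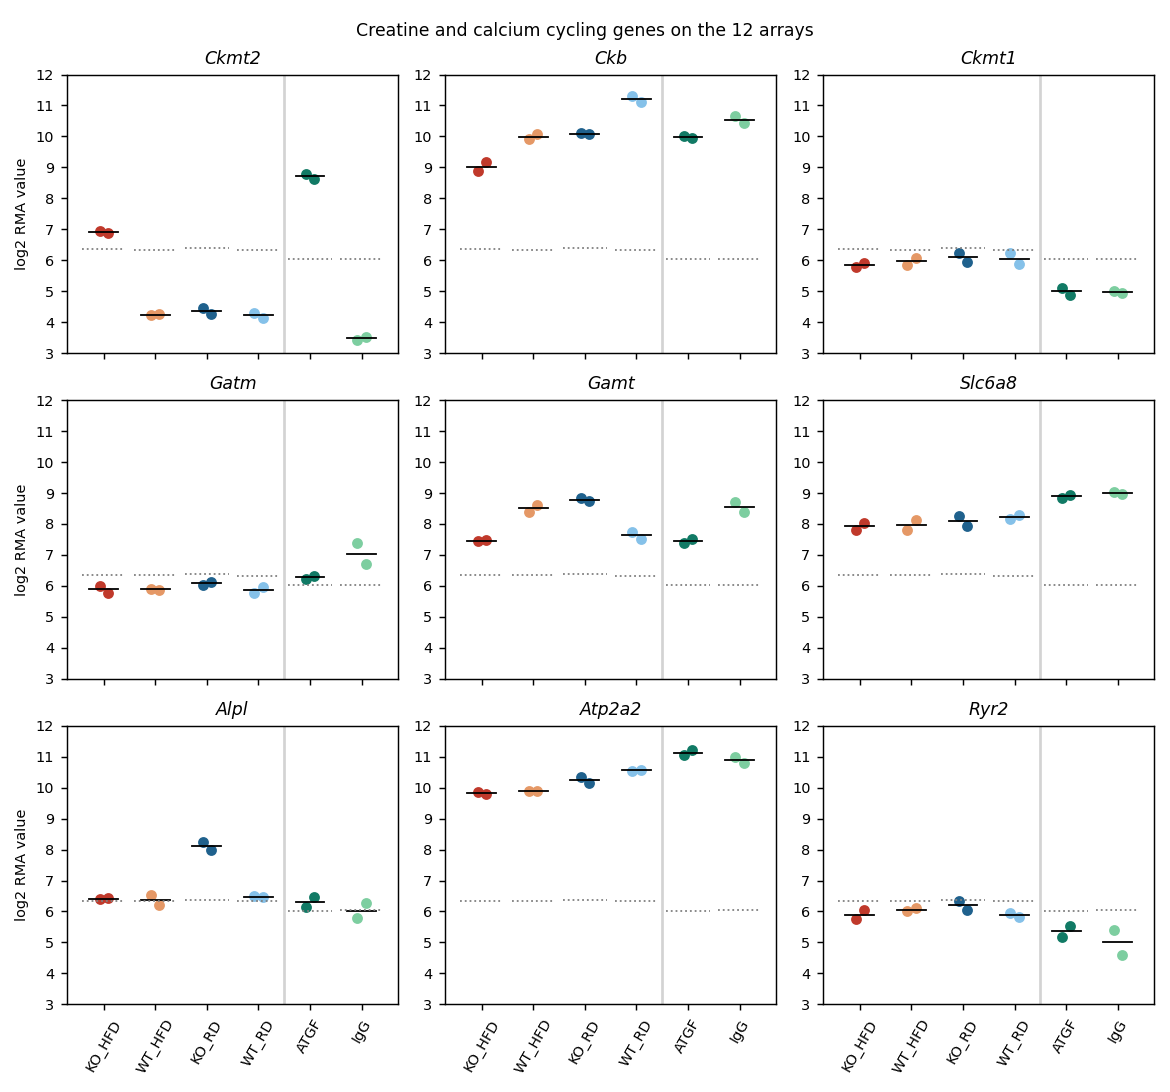
Log2 RMA value of each of the 9 genes (vertical axes) on every array, by group. Points are the 2 arrays of a group, black lines their mean, dotted grey lines the mean of the 2 arrays' medians, and the vertical line separates the experiments. Ckmt2 is high in KO_HFD and ATGF, Alpl in KO_RD, and Ckb is lowest in KO_HFD.

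Among the creatine kinases, Ckmt2 and Ckb moved in opposite directions and Ckmt1 did not pass in any comparison. Ckmt2, the mitochondrial creatine kinase of skeletal muscle and heart, was higher in the knockout on high fat diet and with the antibody. Ckb, the cytosolic brain-type kinase that also works in fat, was lower in the knockout on both diets, on high fat diet in both genotypes, and with the antibody. The stretches just upstream of the transcript starts of both genes, and of the muscle-type gene Ckm, are printed to show what lies there (RefSeq, build GRCm38.p6). They are the 250 bases before the start, 5' to 3' on the strand of the gene. Ckmt2 lies at chr13:91876886-91877135 (minus strand), Ckm at chr7:19410844-19411093 (plus) and Ckb at chr12:111672339-111672588 (minus). The annotated Ckmt2 gene reaches 91876923, inside its window, so that window lies before a start within the gene. Capitals mark each E-box, CANNTG, the core that myogenic and other basic helix-loop-helix factors recognise, and each TATA box, TATAAA, found on either strand. The marks do not overlap.
Ckmt2: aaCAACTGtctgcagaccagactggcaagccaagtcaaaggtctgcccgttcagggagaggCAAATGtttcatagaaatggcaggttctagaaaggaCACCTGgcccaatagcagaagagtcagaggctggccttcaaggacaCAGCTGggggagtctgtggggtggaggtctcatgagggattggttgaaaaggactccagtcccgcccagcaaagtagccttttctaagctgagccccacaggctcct
Ckm: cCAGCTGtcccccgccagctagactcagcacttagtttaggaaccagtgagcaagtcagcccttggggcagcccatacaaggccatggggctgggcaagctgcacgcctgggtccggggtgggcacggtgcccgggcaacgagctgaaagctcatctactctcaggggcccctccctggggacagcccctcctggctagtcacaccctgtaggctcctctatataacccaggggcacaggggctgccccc
Ckb: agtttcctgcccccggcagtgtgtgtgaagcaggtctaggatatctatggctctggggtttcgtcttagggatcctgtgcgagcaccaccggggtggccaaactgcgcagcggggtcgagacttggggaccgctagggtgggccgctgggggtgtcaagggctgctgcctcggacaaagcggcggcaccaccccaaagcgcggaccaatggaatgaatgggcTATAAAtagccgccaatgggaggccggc
The Ckmt2 window held 4 E-boxes and the Ckm window 1, and in each 1 of these was CAGCTG (in 13% of windows). The Ckb window held 0 E-boxes and 1 TATA box. Of 32851 RefSeq windows of this length, 66.2% held at least 1 E-box, 3.84% at least 4, and 12.4% a TATA box. AAGGTCA, a site of estrogen-related receptors (4.08% of windows), and CTAAAAATA, a MEF2 site (0.469%), were in none of the 3. A match is a stretch of letters, and binding was not measured.

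Ckmt2 stood at 6.94 and 6.87 in KO_HFD, against 4.23 and 4.27 in WT_HFD. It stood at 4.46 and 4.25 in KO_RD, against 4.30 and 4.13 in WT_RD. With the antibody it read 8.79 and 8.64 in ATGF, against 3.41 and 3.53 in IgG. Thus KO_HFD and ATGF lay far above WT_HFD and IgG, while KO_RD and WT_RD overlapped. The log2 difference for genotype on high fat diet was 2.66 ± 0.14 (SE, 2 arrays a side), or 6.32-fold (limma adjusted p = 4.18e-14). On regular diet it was 0.14 ± 0.14 (limma adjusted p = 0.545, 95% interval -0.15 to 0.43). The interaction, which tests whether the genotype difference changed with diet, was 2.52 ± 0.20 (limma adjusted p = 1e-10). Between high fat and regular diet, Ckmt2 differed by 2.55 ± 0.14 in the knockout (limma adjusted p = 5.84e-14) and by 0.03 ± 0.14 in wild type (limma adjusted p = 0.957). The antibody difference of 5.24 ± 0.14, or 37.8-fold (limma adjusted p = 3.4e-21), was the widest of any member. The groups at 3.4 to 4.5 lie well below the array medians, where values may be background and folds compressed.

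Fast skeletal muscle markers moved with Ckmt2. Of 18 such genes, 18 were higher and 0 lower in KO_HFD than in WT_HFD (median 4.12, against -0.01 over all genes), and 18 higher and 0 lower in ATGF than in IgG (median 5.22, against -0.003 over all genes). Of these 18 genes, 1 lay below the median of all genes in KO_HFD and 16 in WT_HFD, and 0 in ATGF and 15 in IgG. On regular diet, 10 were higher and 2 lower in the knockout, with a median of 0.42. Slow skeletal or cardiac muscle genes were higher in 7 of 12 in KO_HFD against WT_HFD, and in 7 of 12 with 1 lower in ATGF against IgG. Brown and beige fat genes were also higher, 12 of 19 with 0 lower in KO_HFD against WT_HFD (median 0.76). In ATGF against IgG 16 of these were higher and 0 lower (median 1.58). In KO_RD against WT_RD, where Ckmt2 did not pass, 10 were higher and 1 lower (median 1.10). The part of muscle or brown fat RNA in the Ckmt2 difference was not tested. The genes whose pattern over the 12 arrays was most like that of Ckmt2 were Nrap, Ttn, Lmod2, Neb and Tnni1, at Pearson r = 0.996, 0.995, 0.995, 0.995 and 0.995. All of them encode proteins of the striated muscle myofibril. These correlations, and those below, use values centred on the mean of each experiment, over 12 arrays that form 6 groups, and among 2628 or 2629 genes with an SD of at least 0.3. For Ckmt2 they rest on the KO_HFD and ATGF arrays.

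Ckb read 8.87 and 9.18 in KO_HFD, against 9.91 and 10.08 in WT_HFD. It read 10.11 and 10.06 in KO_RD, against 11.30 and 11.11 in WT_RD. ATGF arrays had 10.01 and 9.94, against 10.64 and 10.45 in IgG. In each pair the knockout or ATGF arrays all lay below the wild-type or IgG arrays. Genotype differed by -0.97 ± 0.11 on high fat diet (1.96-fold lower, limma adjusted p = 3.02e-07) and by -1.12 ± 0.11 on regular diet (2.17-fold lower, limma adjusted p = 6.7e-09). The high fat diet differed from the regular diet by -1.06 ± 0.11 in the knockout (limma adjusted p = 3.09e-08) and by -1.21 ± 0.11 in wild type (limma adjusted p = 3.81e-09). With the antibody the log2 difference was -0.57 ± 0.11 (1.49-fold lower, limma adjusted p = 0.000323). These comparisons share arrays in part, since WT_RD serves for both genotype and diet. Ckb thus ran, low to high, KO_HFD, then WT_HFD and KO_RD, whose arrays overlapped, then WT_RD. The interaction did not pass at 0.15 ± 0.16 (limma adjusted p = 0.621, 95% interval -0.18 to 0.48).

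Smooth muscle and pericyte genes were lower beside Ckb in the 2 comparisons with WT_RD, 9 of 10 with 0 higher in KO_RD and 10 of 10 in WT_HFD. White adipocyte genes were also lower in KO_RD, 10 of 11 with 0 higher (median -0.94), with a mean level of 11.00 to 11.12 in KO_RD, against 12.54 to 12.59 in WT_RD. Their part in the lower Ckb and Atp2a2 of KO_RD was not tested. The smooth muscle genes went the other way in the comparisons without WT_RD. There 7 of 10 were higher and 1 lower in KO_HFD against WT_HFD, 5 higher and 1 lower in KO_HFD against KO_RD, and 6 higher and 1 lower in ATGF against IgG, while Ckb was lower in all of these. White adipocyte genes were higher in 10 of 11 with 0 lower in KO_HFD against KO_RD (median 0.85), where Ckb and the brightest Atp2a2 probe set were lower. Of these 11, 2 were higher and 3 lower in KO_HFD against WT_HFD. In WT_HFD against WT_RD 1 was higher and 2 lower, and in ATGF against IgG 5 were higher and 2 lower. Of 10 macrophage genes, 0 were higher and 6 lower in KO_HFD against WT_HFD, and 1 higher and 7 lower in KO_RD against WT_RD. In ATGF against IgG 0 were higher and 9 lower. By diet they differed from Ckb, with 5 higher and 1 lower in KO_HFD against KO_RD, and 4 higher and 1 lower in WT_HFD against WT_RD. The part of macrophage RNA in the Ckb differences was not tested. The genes most like Ckb were Actg1, a cytoplasmic actin (r = 0.973), Ergic1, a membrane protein between endoplasmic reticulum and Golgi (r = 0.966), Emb, the cell-surface glycoprotein embigin (r = 0.959), Litaf (r = 0.942) and Cystm1 (r = 0.920).

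Ckmt1, the ubiquitous mitochondrial creatine kinase, did not pass in any of the 6 comparisons. It read 5.77 and 5.91 in KO_HFD, against 5.86 and 6.07 in WT_HFD. It read 6.23 and 5.96 in KO_RD, against 6.23 and 5.88 in WT_RD. ATGF arrays had 5.10 and 4.89, against 4.99 and 4.93 in IgG. All of these lie below the array medians, and the groups overlapped in these 3 pairs. The antibody difference was 0.04 ± 0.15 with a 95% interval of -0.28 to 0.36. The dimmer Ckmt1 probe set gave 0.37 ± 0.13 for the antibody (limma adjusted p = 0.0328 over all probe sets), from means of 4.03 in ATGF and 3.65 in IgG.

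Ckm, the cytosolic kinase of muscle and no member, is given because it partners Ckmt2 in muscle. It read 11.90 and 11.99 in KO_HFD against 6.55 and 6.09 in WT_HFD, and 11.95 and 11.94 in ATGF against 6.33 and 6.52 in IgG. Both differences were wide, at 5.62 ± 0.13 (limma adjusted p = 1.26e-22) and 5.52 ± 0.13 (limma adjusted p = 8.84e-23). Ckm departed from Ckmt2 on the other arrays. It was 8.24 and 8.09 in KO_RD against 9.18 and 8.93 in WT_RD, a difference of -0.88 ± 0.13 (limma adjusted p = 3.5e-06). In WT_HFD it lay below WT_RD by a log2 difference of -2.74 ± 0.13 (limma adjusted p = 1.34e-15), a comparison in which Ckmt2 did not pass and 0 of 18 fast muscle genes rose and 3 fell.

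**Figure D2:**
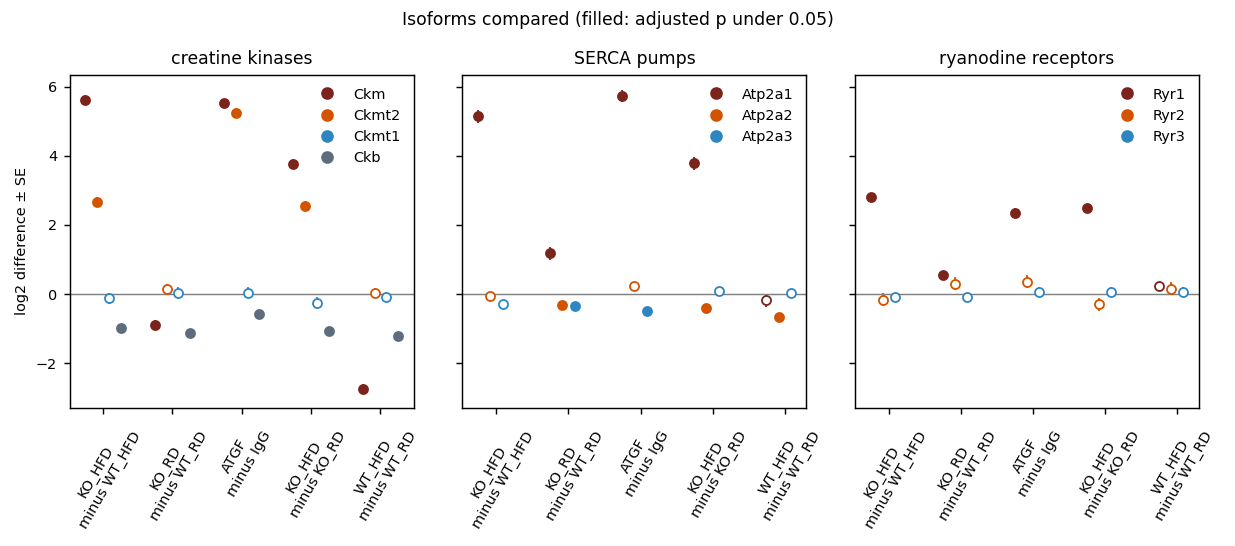
Log2 difference with its SE (vertical axis) of creatine kinase, SERCA pump and ryanodine receptor genes in 5 comparisons (horizontal axis), each gene by its brightest probe set. Filled points passed the test over all genes. The muscle isoforms Ckm, Atp2a1 and Ryr1 were higher in KO_HFD than in WT_HFD by 5.62, 5.15 and 2.80, while Ckb differed by -0.97.

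The genes of creatine synthesis and uptake did not move as a block. Gatm makes guanidinoacetate from arginine and glycine, chiefly in kidney and pancreas, and Gamt methylates it to creatine, chiefly in liver. Slc6a8 is the creatine transporter of the plasma membrane. Gamt passed in all 6 comparisons, with a sign that depended on diet and genotype, Gatm passed only for the antibody and Slc6a8 in none.

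Gamt read 7.45 and 7.47 in KO_HFD, against 8.38 and 8.62 in WT_HFD. On regular diet it read 8.83 and 8.73 in KO_RD, against 7.75 and 7.52 in WT_RD. The knockout was thus below wild type on the high fat diet and above it on the regular diet, with no overlap in either. The differences were -1.04 ± 0.13 (2.06-fold lower, limma adjusted p = 7.43e-07) and 1.14 ± 0.13 (2.21-fold higher, limma adjusted p = 4.44e-08). The interaction was -2.18 ± 0.18 (limma adjusted p = 2.33e-10). Between high fat and regular diet, Gamt differed by -1.32 ± 0.13 in the knockout (limma adjusted p = 6.01e-09) and by 0.87 ± 0.13 in wild type (limma adjusted p = 1.26e-05). With the antibody, ATGF arrays had 7.39 and 7.52, against 8.71 and 8.37 in IgG, a difference of -1.09 ± 0.13 (2.12-fold lower, limma adjusted p = 1.76e-07).

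Epididymis and testis genes followed the same order as Gamt at the top of the diet and genotype arrays. They were highest in KO_RD and next in WT_HFD, with 9 of 10 higher and 0 lower in KO_RD against WT_RD (median 6.24) and 6 higher and 0 lower in WT_HFD against WT_RD (median 2.45). In KO_HFD, 0 of these were higher and 6 lower than in WT_HFD (median -1.18), and 0 higher and 9 lower than in KO_RD (median -4.67). In the antibody arrays, where Gamt was lower in ATGF, 10 of these 10 genes lay below the median of all genes in both groups. The part of epididymal RNA in the Gamt differences was not tested. The genes most like Gamt were Basp1 (r = 0.975), Tpd52 (r = 0.968), Hspa5, the chaperone BiP of the endoplasmic reticulum (r = 0.956), the lysosomal protease Ctsh (r = 0.951) and Pdzk1ip1 (r = 0.950).

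Gatm was near the array medians in the diet and genotype arrays, at 5.99 and 5.78 in KO_HFD, 5.91 and 5.88 in WT_HFD, 6.03 and 6.13 in KO_RD and 5.78 and 5.96 in WT_RD. No comparison among these passed. It read 6.23 and 6.33 in ATGF, against 7.37 and 6.69 in IgG, a difference of -0.75 ± 0.17 (1.69-fold lower, limma adjusted p = 0.00109). Replicate a of IgG decides this call, since without it the difference was -0.42 (limma adjusted p = 0.0948). Hepatocyte genes were lower beside Gatm and Gamt in ATGF, 5 of 6 with 0 higher (median -1.48). Their mean level was 5.68 to 5.73 in ATGF, against 7.37 to 7.44 in IgG. Of 10 macrophage genes, 9 were lower and 0 higher in ATGF (median -1.71), with a mean level of 9.99 to 10.03 in ATGF, against 11.52 to 11.55 in IgG. Their part in the lower Gatm, Gamt and Ckb was not tested. Alb, the plasma albumin gene, averaged 7.32 in ATGF and 10.51 in IgG. The exocrine pancreas list had 1 of 5 lower and the kidney tubule list 0 of 6 in either direction there. The genes most like Gatm were Slc8a1, a plasma membrane sodium-calcium exchanger (r = 0.938), Fam78a (r = 0.915), Cln8 (r = 0.914), Lrrc27 (r = 0.908) and 2310022A10Rik (r = 0.903).

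Slc6a8 stayed between 7.79 and 8.30 on the 8 diet and genotype arrays and between 8.84 and 9.04 on the 4 antibody arrays. Its levels lie above the array medians, unlike those of Ckmt1. Its means were 7.92 in KO_HFD, 7.96 in WT_HFD, 8.10 in KO_RD, 8.22 in WT_RD, 8.89 in ATGF and 9.00 in IgG. For genotype the 95% intervals were -0.31 to 0.22 on high fat diet and -0.38 to 0.14 on regular diet, and for the antibody -0.37 to 0.15. The widest difference, for diet in wild type, was -0.26 ± 0.13 (limma adjusted p = 0.259), with WT_HFD at 7.79 and 8.13 below WT_RD at 8.15 and 8.30.

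Alpl, tissue-nonspecific alkaline phosphatase, stood out in a single group. It read 6.40 and 6.43 in KO_HFD, against 6.53 and 6.20 in WT_HFD. It read 8.24 and 7.98 in KO_RD, against 6.49 and 6.47 in WT_RD. ATGF arrays had 6.14 and 6.45, against 5.77 and 6.28 in IgG. Only KO_RD lay clearly above the array medians, by a difference from WT_RD of 1.63 ± 0.16 (3.10-fold, limma adjusted p = 5.04e-09). On high fat diet the genotype difference was 0.05 ± 0.16 (limma adjusted p = 0.932), and the interaction was -1.58 ± 0.23 (limma adjusted p = 5.17e-06). Within the knockout, the high fat diet lay below the regular diet by a log2 difference of -1.69 ± 0.16 (limma adjusted p = 4.53e-09). The antibody difference of 0.27 ± 0.16 did not pass (limma adjusted p = 0.254), but came to 0.52 without IgG replicate b (limma adjusted p = 0.0392).

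The group in which Alpl was high is also the one with the highest epididymal genes. The genes most like Alpl were Tbx2 (r = 0.987), Wipf3 (r = 0.973), Rnase10 (r = 0.971), Defb21 (r = 0.969) and Gpx5 (r = 0.967), and Rnase10, Defb21 and Gpx5 are known for expression in the epididymis. Gpx5 averaged 7.05 in KO_HFD, 7.00 in WT_HFD, 13.93 in KO_RD and 6.93 in WT_RD. Alpl was not high in WT_HFD, where the epididymal mean was 8.15 to 8.23. The list was mixed in that group, with Cuzd1 averaging 13.03 and Adam7 10.70, but Gpx5 7.00 and Rnase10 6.76. The bone and cartilage list, from tissues rich in this enzyme, had 0 of 6 genes passing in KO_RD against WT_RD. How much of the Alpl difference came with epididymal RNA was not tested.

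**Figure D3:**
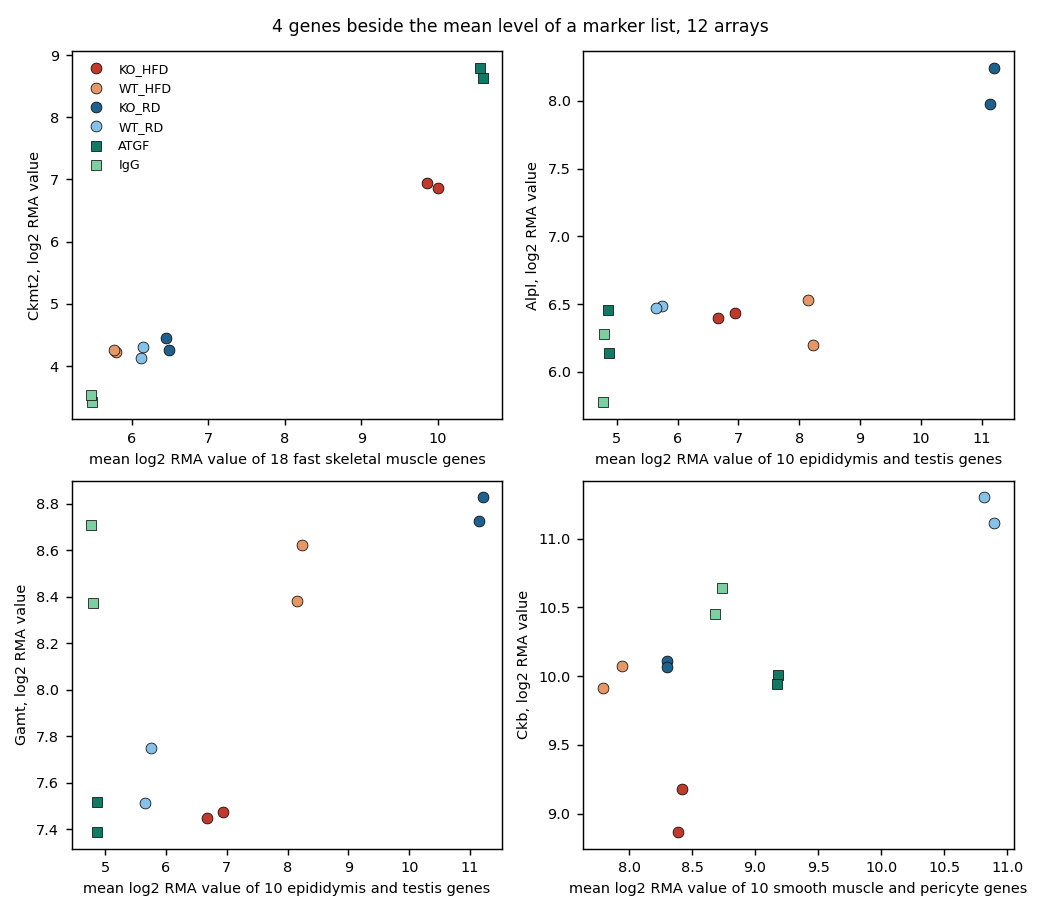
Log2 RMA value of Ckmt2, Alpl, Gamt and Ckb (vertical axes) against the mean log2 RMA value of a marker list (horizontal axes) on the same 12 arrays, with circles for the diet and genotype arrays and squares for the antibody arrays. Ckmt2 is high only on the KO_HFD and ATGF arrays, whose muscle means are 9.85 or more, and Alpl only on the KO_RD arrays, whose epididymal means are 11.14 or more.

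Atp2a2 encodes SERCA2, the calcium pump of heart, slow muscle, smooth muscle and, as a second splice form, nearly all cells. Its 6 probe sets did not agree, so each is described. The brightest read 9.85 and 9.81 in KO_HFD, against 9.88 and 9.90 in WT_HFD. It read 10.34 and 10.15 in KO_RD, against 10.54 and 10.58 in WT_RD. ATGF arrays had 11.06 and 11.21, against 10.99 and 10.78 in IgG. By this probe set the high fat diet went with lower values in both genotypes, at -0.41 ± 0.10 in the knockout (limma adjusted p = 0.00461) and -0.67 ± 0.10 in wild type (limma adjusted p = 2.77e-05). Genotype differed by -0.06 ± 0.10 on high fat diet (limma adjusted p = 0.864) and by -0.31 ± 0.10 on regular diet (limma adjusted p = 0.0283). The last call was lost without WT_RD replicate a (adjusted p = 0.0909), WT_RD replicate b (adjusted p = 0.143) or KO_RD replicate b (adjusted p = 0.227), and that for diet in the knockout without KO_RD replicate a (adjusted p = 0.0637) or KO_HFD replicate b (adjusted p = 0.054). With the mean of its probe sets the diet difference in the knockout turned to 0.30 (limma adjusted p = 0.0322) and genotype on high fat diet to 0.63 (limma adjusted p = 0.000242), and after quantile normalization that for genotype on regular diet was 0.0064 (limma adjusted p = 0.973). The antibody difference of 0.24 ± 0.10 did not pass (limma adjusted p = 0.0937), with both ATGF arrays above both IgG arrays. It passed with the average of its probe sets (0.48, limma adjusted p = 0.000849), after quantile normalization (0.31, limma adjusted p = 0.0141) and with the antibody arrays fitted alone (0.24, limma adjusted p = 0.0343). The interaction of 0.25 ± 0.15 (limma adjusted p = 0.282) passed with the average of the probe sets, at 1.19 (limma adjusted p = 7.62e-06).

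The probe set ranked 2 in brightness gave wider differences and in part opposite signs. It read 10.60 and 10.84 in KO_HFD, against 8.55 and 8.88 in WT_HFD. It read 9.31 and 8.78 in KO_RD, against 11.18 and 11.00 in WT_RD. ATGF arrays had 11.49 and 11.51, against 9.96 and 9.88 in IgG. Here KO_HFD, WT_RD and ATGF were the high groups, and no pair overlapped. Genotype differed by 2.00 ± 0.14 on high fat diet (limma adjusted p = 5.73e-11 over all probe sets) and by -2.04 ± 0.14 on regular diet (limma adjusted p = 9.4e-12). Diet differed by 1.67 ± 0.14 in the knockout (limma adjusted p = 9e-10) and -2.38 ± 0.14 in wild type (limma adjusted p = 9.73e-13). The antibody difference was 1.57 ± 0.14 (limma adjusted p = 2.12e-09), and the interaction was 4.05 ± 0.19 (limma adjusted p = 1.96e-14).

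The probe set ranked 3 had the same signs as that ranked 2 in all 6 comparisons, with 1.23 and -1.19 for genotype on high fat and regular diet, and 1.06 for the antibody. Its arrays in WT_HFD lay apart, at 7.62 and 8.58. The probe set ranked 4 was lower in WT_HFD than in WT_RD (-0.81 ± 0.12, limma adjusted p = 2.04e-05) and higher in KO_HFD than in WT_HFD (0.43 ± 0.12, limma adjusted p = 0.0204). The 2 dimmest, near 6.5 and 3.9, did not pass in any comparison. The transcript part or splice form that each probe set reads is unknown here. The high groups of the probe sets ranked 2 and 3 are those in which muscle markers were high, fast skeletal muscle in KO_HFD and ATGF and smooth muscle in WT_RD. The part of muscle RNA in these values was not tested. By the brightest probe set, the genes most like Atp2a2 were the epithelial keratin Krt19 (r = 0.973), Ints6 (r = 0.960), Nab2 (r = 0.953), Actg2, a smooth muscle actin (r = 0.937), and Bdh1 (r = 0.935).

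**Figure D4:**
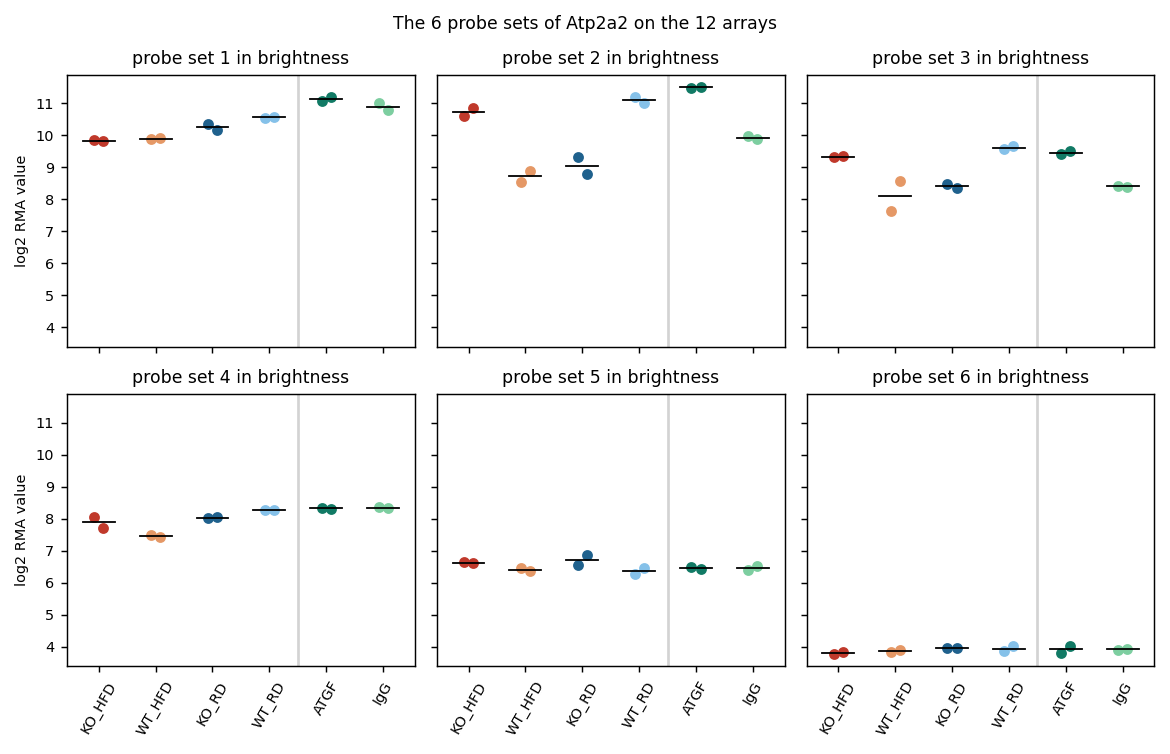
Log2 RMA value (vertical axes) of the 6 Atp2a2 probe sets on the 12 arrays, ordered by brightness, with points for arrays and lines for group means. The probe sets ranked 2 and 3 are high in KO_HFD, WT_RD and ATGF, whereas the brightest has KO_HFD and WT_HFD at 9.81 to 9.90.

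Ryr2, the ryanodine receptor of heart and brain, was dim and did not pass in any comparison by its brighter probe set. It read 5.75 and 6.03 in KO_HFD, against 6.01 and 6.10 in WT_HFD. It read 6.35 and 6.04 in KO_RD, against 5.96 and 5.83 in WT_RD. ATGF arrays had 5.18 and 5.53, against 5.39 and 4.61 in IgG. These values lie at or below the array medians. The antibody difference of 0.36 ± 0.19 (limma adjusted p = 0.191) depended on the IgG array used, at 0.75 without replicate a (limma adjusted p = 0.0052) and -0.04 without replicate b. The dimmer probe set pointed the other way, at -0.46 ± 0.15 (limma adjusted p = 0.035 over all probe sets), from means of 4.96 in ATGF and 5.42 in IgG.

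The skeletal muscle pump Atp2a1 and channel Ryr1 were higher in KO_HFD and ATGF, whereas Atp2a3 and Ryr3 were not called higher in either. Atp2a3, the SERCA3 pump, differed by -0.29 in KO_HFD (limma adjusted p = 0.0941) and was lower in ATGF (-0.48, limma adjusted p = 0.00101). Ryr3, a ryanodine receptor of brain and other tissues, stood at -0.10 and 0.07 and did not pass in either (limma adjusted p = 0.778 and 0.739). Atp2a1, the fast-muscle SERCA1 pump, read 11.16 and 11.18 in KO_HFD against 6.53 and 5.52 in WT_HFD, and 11.21 and 11.01 in ATGF against 5.40 and 5.35 in IgG. Its differences were 5.15 ± 0.18 (limma adjusted p = 4.22e-18) and 5.73 ± 0.18 (limma adjusted p = 1.95e-19), and on regular diet 1.18 ± 0.18 (limma adjusted p = 1.21e-05). Ryr1, the release channel of skeletal muscle, was higher by 2.80 in KO_HFD, 0.55 in KO_RD and 2.36 in ATGF than in WT_HFD, WT_RD and IgG. Sln, sarcolipin, a small protein that uncouples SERCA pumping from ATP use, was higher by 1.47 in KO_HFD and 2.30 in ATGF, and stood at 0.13 ± 0.15 in KO_RD (limma adjusted p = 0.583). Pln, phospholamban, which restrains SERCA2 in heart, passed only for the antibody (0.79 ± 0.18, limma adjusted p = 0.00133).

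Of 31 measured genes of sarcoplasmic reticulum calcium handling, 11 were higher and 3 lower in KO_HFD against WT_HFD, 9 higher and 7 lower in KO_RD against WT_RD, and 17 higher and 4 lower in ATGF against IgG. Their medians were 0.08, 0.09 and 0.44, against -0.01, 0.04 and -0.003 over all genes. Of all genes, 10.8%, 24% and 24.3% passed in the same comparisons. Srl, sarcalumenin, and Trdn, triadin, were higher in KO_HFD by 1.97 and 1.58, and Cacna1s, the voltage sensor of muscle, and Hrc in ATGF by 2.61 and 1.99. On regular diet the 5 smallest p-values belonged to Asph (-1.45), Fkbp1a (-1.11), Calr, the chaperone calreticulin (0.97), the kinase Camk2g (-0.81) and Jph2, a junctional membrane protein of muscle (-0.87). Diet in the knockout had 11 higher and 3 lower (17.3% of all genes passed), and in wild type 3 higher and 5 lower (10.8% of all genes passed).

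Of 17 other creatine and phosphagen genes, 4 were higher and 1 lower in KO_HFD against WT_HFD, 2 higher and 6 lower in KO_RD against WT_RD, and 5 higher and 4 lower in ATGF against IgG. Of all genes, 10.8%, 24% and 24.3% passed in these comparisons. The list medians were 0.04, -0.04 and 0.02, against -0.01, 0.04 and -0.003 over all genes. Slc25a4, the ADP/ATP carrier of muscle and heart mitochondria, was higher by 0.72 in KO_HFD and 0.86 in ATGF, and differed by -0.77 in KO_RD. Ak1, an adenylate kinase of muscle, was higher by 0.63 in KO_HFD, 0.39 in KO_RD and 0.66 in ATGF. Arg1, the liver and macrophage arginase that competes with Gatm for arginine, averaged 4.68 in ATGF and 7.10 in IgG, a difference of -2.42 ± 0.15 (limma adjusted p = 3.52e-13). Of 10 genes of mitochondrial and plasma membrane calcium transport, 1 was higher and 1 lower in KO_HFD, 3 higher and 1 lower in KO_RD, and 0 higher and 2 lower in ATGF, each against its own control. The shares over all genes are those just given, and the medians of these 10 were -0.04, 0.10 and -0.06. Among them, Letm1, a mitochondrial inner membrane protein, was higher by 0.94 in KO_HFD and by 0.37 in KO_RD (limma adjusted p = 0.025). Atp2b3, a plasma membrane calcium pump, was higher by 1.32 in KO_RD but lower in KO_HFD (-0.80, limma adjusted p = 0.000717).

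Counted over the members, 3 of 9 passed for genotype on high fat diet, where 10.8% of all genes did. By direction, 1 was higher (4.74% of all genes) and 2 lower (6.05%). For genotype on regular diet 4 passed (24% of all genes), 2 higher (8.4%) and 2 lower (15.6%). For the antibody 4 passed (24.3% of all genes), 1 higher (11.7%) and 3 lower (12.6%). Diet passed for 5 in the knockout (17.3% of all genes), 1 higher (11.5%) and 4 lower (5.82%), and for 3 in wild type (10.8% of all genes), 1 higher (4.69%) and 2 lower (6.11%). The interaction passed for 3 (18.8% of all genes), 1 higher (12%) and 2 lower (6.77%). The medians of the 9 differences were -0.06, 0.14 and 0.04 for genotype on high fat diet, genotype on regular diet and the antibody, against -0.01, 0.04 and -0.003 over all genes. The called members went both ways in each comparison. Of all called genes on regular diet 35% were higher in the knockout, and 48.7% after quantile normalization over the 12 arrays.

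Ucp1, the uncoupling protein itself, gives the setting for these cycles. It averaged 11.77 in KO_HFD against 6.35 in WT_HFD, 12.38 in KO_RD against 6.42 in WT_RD, and 12.40 in ATGF against 5.48 in IgG. All 3 contrasts were wide, at 5.41, 5.96 and 6.93, whereas of the members only Ckb passed in one direction, downwards, in the same 3.

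**Figure D5:**
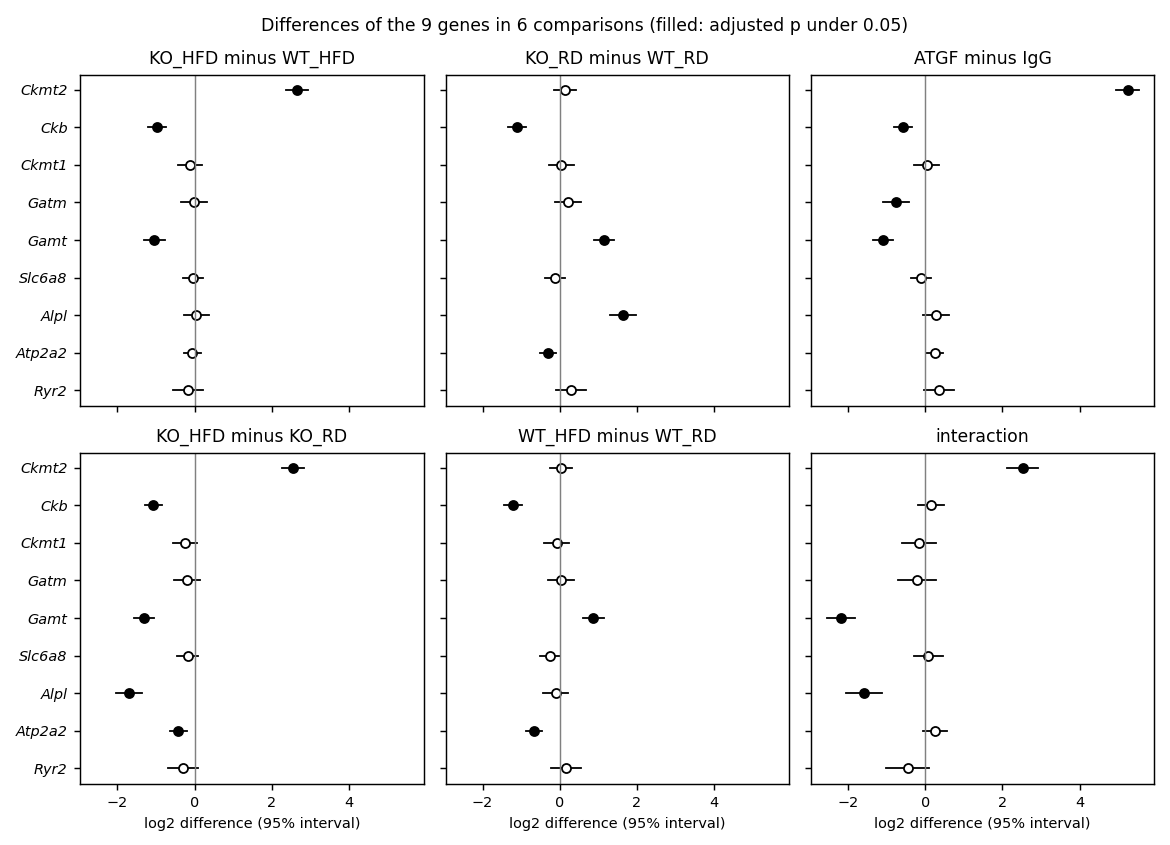
Log2 difference with its 95% interval (horizontal axes) of the 9 genes in the 6 comparisons. Filled points passed limma's test over all 18194 genes (threshold 0.05 after adjustment). Ckb lies below 0 in the 5 comparisons of 2 groups, and Gamt changes sign between diets.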

How the data were processed

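One Affymetrix array was run for each of 12 mouse RNA samples (6 ug total RNA, per the labels' protocols). Expression is given as deposited log2 values, which the submitters' processing notes credit to RMA and Partek. No tool version is stated in the sources, nor whether both experiments were normalized together. In the platform annotation 34958 of 45101 probe sets carry a single gene symbol, 932 carry several and 9211 carry none. Matching gene IDs to a RefSeq table (GRCm38.p6) found 18032 of the 18194 genes.

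Group means over the 12 arrays were fitted with limma 3.58.1 (R 4.3.3), using eBayes with an intensity trend (6 residual and 20.4 prior degrees of freedom). Tests were two-sided, and p-values were adjusted by Benjamini-Hochberg over the 18194 genes, with calls at 0.05. Dimmer probe sets were adjusted over the 34958. The code was tested on simulated data. The number of arrays limits the precision. The members and lists were chosen with earlier results of these data known. Genes named are the members, up to 5 genes of each pathway list with the smallest p, Ckm, Atp2a1, Ryr1, Sln, Pln and Ucp1, and the 5 genes most like each called member. Adipoq, Alb, Gpx5, Cuzd1, Adam7 and, in the plot of isoforms, Atp2a3 and Ryr3 were added after their values were seen. The alternatives were eBayes without the trend, a filter on dim genes, averaging the probe sets of a gene, each probe set alone, median centring, quantile normalization, each experiment alone, a replicate block and leaving out each array.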

Additional observations from a re-analysis of the deposited data

Results flagged for a closer look

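The genotype difference changed with diet, by a test of the interaction itself, for 3 members and for 3 further probe sets of Atp2a2. This interaction passed for 18.8% of all genes, and for 5004 of 34958 probe sets. The interaction was 2.52 for Ckmt2, where the knockout was above wild type on high fat diet alone. It was -2.18 for Gamt, where the knockout lay below wild type on high fat diet and above it on regular diet. For Alpl it was -1.58, from a rise in KO_RD that KO_HFD did not share. For Atp2a2 the probe sets ranked 2, 3 and 4 in brightness gave 4.05, 2.41 and 0.66 (limma adjusted p = 1.96e-14, 2.85e-08 and 0.00597 over all probe sets), while the brightest gave 0.25 ± 0.15 (limma adjusted p = 0.282).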

How the results depend on the processing

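Of 22 calls of members in the 6 comparisons, 19 were kept under every alternative that tested them. The others were Atp2a2 for genotype on regular diet and for diet in the knockout, and Gatm for the antibody. The first was also lost without the intensity trend (limma adjusted p = 0.0734). Several alternatives left little room to lose a call. Testing each probe set alone reused the brightest probe set of every member. Averaging changed no values of Ckmt2, Ckb, Gatm, Gamt and Alpl, which have a single probe set. Leaving out an array outside a comparison left its difference unchanged. The count of kept calls is thus no full measure of robustness. Atp2a2 gained a call for the antibody under 3 alternatives (0.24 to 0.48) and for the interaction under 1 (1.19). The filter on dim genes (under the 40th percentile) left out Ckmt1, Ckmt2, Gatm and Ryr2, after which 2 members were called for the antibody. With every probe set on its own, 6618 were called for genotype on regular diet and 7573 for the antibody, more features being tested, against 4361 and 4423 genes. Differences that turned sign when the probe sets of a gene were averaged were Slc6a8 for genotype on regular diet (0.0034), on high fat diet (0.0032) and the interaction (-2e-04), Atp2a2 for genotype on high fat diet (0.63) and diet in the knockout (0.30), and Ryr2 for the antibody (-0.0508). Median centring turned Ckmt1 on regular diet (-0.018). Quantile normalization turned Ckmt1 (-0.0233) and Atp2a2 (0.0064) on regular diet, Gatm for diet in wild type (-0.0078), and the interactions of Ckb (-0.18) and Atp2a2 (-0.0284). Leaving out single arrays gave 1296 to 2100 genes for diet in wild type (1296 without WT_RD replicate a) and 2035 to 3248 for diet in the knockout (2035 without KO_HFD replicate b), against 1966 and 3150. It also turned differences that had not passed. For genotype on regular diet these ranged from -0.13 to 0.22 in Ckmt1 and -0.27 to 0.0309 in Slc6a8. For genotype on high fat diet they ranged from -0.11 to 0.0909 in Gatm, -0.21 to 0.13 in Slc6a8 and -0.12 to 0.22 in Alpl. For diet in wild type they ranged from -0.26 to 0.0877 in Ckmt1, -0.056 to 0.11 in Ckmt2, -0.0666 to 0.12 in Gatm and -0.28 to 0.0565 in Alpl. Interactions ranged from -0.34 to 0.0093 in Ckmt1, -0.0055 to 0.31 in Ckb and -0.0886 to 0.25 in Slc6a8. For the antibody they ranged from -0.0674 to 0.14 in Ckmt1 and -0.0371 to 0.75 in Ryr2. The cause of these changes was not tested. Deviations of same-lettered arrays correlated at r = -0.161 to 0.169 between groups, so the letters were not taken as pairs. With a replicate block 4358 genes were called for genotype on regular diet and 1947 on high fat diet, with 4412 for the antibody, and no member's call changed. Values near or below the array medians (Ckmt1, Ryr2, and Gatm outside IgG) may be background. So may those well below them (Ckmt2 outside KO_HFD and ATGF). This limits what can be seen in these genes.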
